A study of Mus musculus with 40 samples.

Results

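Mitochondrial ribosomal protein genes are the nuclear genes whose symbols start with Mrpl or Mrps followed by a digit, and 47 of the 11119 genes measured in mouse liver carried such a symbol. They comprised 26 Mrpl and 21 Mrps genes. The rule for members reads symbols only. GENCODE lists 78 protein-coding mouse genes under this naming rule. Of these, 46 were matched by symbol and chromosome to an entry of the tables, and 1 further entry, Mrpl24--Rrnad1, joined a member to its neighbour. Another 4 family genes stood inside entries led by another name (Gcfc2--Mrpl19, Ccdc142--Mrpl53, Nr2c2--Mrps25 and Syvn1--Mrpl49) and were not counted as members. The remaining 27, among them Mrpl10, Mrpl11, Mrpl12, Mrps7, Mrps12, Mrps18b and Mrps18c, were not analysed here. The matched members spanned 10.5 kb of genome at the median, against 4.52 kb for the family genes that were not members, so short genes of the family are thinly covered.

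Polyadenylated RNA had been sequenced from livers (the labels give hepatocytes as the cell type) taken before or 48 or 72 h after partial hepatectomy (PH), the surgical removal of part of the organ. The 40 samples formed 9 groups. At 0 h there were 7 mice of 3 months and 8 mice of 12 months. At 48 h there were 3 mice without inhibitor at each age and 3 mice of 12 months given ATRi, an inhibitor of the checkpoint kinase ATR, 24 h after PH. At 72 h there were 4 mice without inhibitor and 4 given ATRi at 24 h, at each age. The labels give no strain or sex and no unit for the ATRi dose. On genotype they hold only the names wt1, wt2 and wt3, borne by 3 of the 7 mice of 3 months at 0 h. All other mice are numbered, and whether their genotype differs is not stated. The labels name some mice at both 0 h and 72 h, namely all 8 of the 12-month mice and 4 of the 3-month mice. The 48 h mice carry other names. What the comparisons ask is how expression in the liver remnant changes after PH, with age and under ATRi.

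Mitochondria translate a small set of respiratory chain subunits on their own ribosome, which descends from that of bacteria. Its RNAs come from mitochondrial DNA, but every protein of both subunits is encoded in the nucleus, made in the cytosol and imported. Part of these proteins have counterparts in the bacterial ribosome and part exist only in mitochondria. Liver cells are rich in mitochondria, and a cell that divides must make new mitochondrial ribosomes for its daughters. Of the members, 17 encode large subunit proteins with a bacterial counterpart and 11 encode mitochondria-specific large subunit proteins, among them Mrps30 and Mrps18a, which sit in the large subunit despite their names. Another 11 encode small subunit proteins with a bacterial counterpart and 7 mitochondria-specific small subunit proteins. The last member, Mrps36, bears the family name but encodes a subunit of the oxoglutarate dehydrogenase complex.

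Genes of this family are known for promoters with sites for the factors NRF1, GABP (an ETS factor) and YY1. RefSeq promoter windows (GRCm38.p6, 250 bases before to 50 bases after a transcription start) were found for 41 of the 47 members, and both strands were searched for the letters GCGCNTGCG (NRF1), CCGGAAG (ETS), ATGGCGG (YY1), CACGTG (E-box) and CCAAT. The first of these can overlap itself on the opposite strand. The ETS letters occurred in windows of 14 members (34.1%, against 17.5% of 8236 genes with windows), the YY1 letters in 11 (26.8% against 8.51%) and the NRF1 letters in 10 (24.4% against 13.9%). At least one of these 3 motifs stood in windows of 27 members (65.9% against 33.9% of genes). The E-box occurred in 3 members (7.32% against 11.3%) and CCAAT in 16 (39.0% against 42.6%). A match describes the letters in the window, not binding. All YY1 matches but that of Mrps11 began 2 (Mrps5) to 30 (Mrpl50) bases after the start, in the transcribed part of the window. The YY1 letters include ATG, and whether they belong to coding sequence was not examined. The sites below belong to members with a motif match, chosen among those with large differences in the results that follow. Other members with large differences had no NRF1, ETS, YY1 or E-box match or no window. These include Mrps14, Mrps36, Mrps35 and Mrps10, which fell in 12-month ATRi livers at 72 h against 0 h, and Mrps28 and Mrpl4, which rose. Each is written 5′ to 3′ along the gene's strand, from windows of 30 bases, with the matched motif or its reverse complement in capitals.
Mrpl9, NRF1, chr3:94443298-94443327, plus strand: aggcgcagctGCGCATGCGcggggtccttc
Mrpl9, YY1, chr3:94443340-94443369, plus strand: gctccgctgtcATGGCGGcctctgtggctc
Mrpl45, NRF1, chr11:97315669-97315698, plus strand: ggtttcattgCGCACGCGCgaacccactgc
Mrpl22, ETS, chr11:58171600-58171629, plus strand: cttttccggtcCCGGAAGccggcctcggac
Mrpl22, NRF1, chr11:58171621-58171650, plus strand: gcctcggactGCGCATGCGtatagtcagcc
Mrpl22, YY1, chr11:58171675-58171704, plus strand: tagggctcagcATGGCGGccgcactactgc
Mrps30, YY1, chr13:118387216-118387245, minus strand: ggcgggcgaaaATGGCGGcggccaggtatt
Mrps5, YY1, chr2:127587417-127587446, plus strand: ccggctccagcATGGCGGcggccgtacgcg
Mrps22, ETS, chr9:98601672-98601701, minus strand: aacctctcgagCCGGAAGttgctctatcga
Mrps27, ETS, chr13:99344727-99344756, plus strand: tggtaggaccaCTTCCGGcggaggcgggct
Mrpl48, ETS, chr7:100583146-100583175, minus strand: ggttttaaaaaCTTCCGGaaccaagatgct
Mrpl36, E-box, chr13:73330954-73330983, plus strand: cacacgtcatccCACGTGaccttacgccat
Mrpl20, E-box, chr4:155802833-155802862, plus strand: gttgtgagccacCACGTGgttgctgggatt
Members that moved in opposite directions share letters: Mrps22, which was lower in 12-month ATRi livers at 72 h than at 0 h, holds the ETS letters, and so do Mrps27 and Mrpl48, which were higher there. Mrps27 also holds the YY1 letters, at a site not printed above, as do Mrpl9, Mrpl22, Mrps30 and Mrps5, which were lower there.

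The unit of expression is a log2 level named sigma in the tables, without a definition, so single genes were compared between groups and not with each other. The summed levels of marker lists given below are an exception. They add the unlogged levels of the genes in a list, so genes with high levels weigh most. For 8 groups the tables held a mean only, with no spread between mice, and differences between these means carry no test. The group of 12 months, 72 h and ATRi also had values for its 4 livers, named M545, M546, M547 and M548, and comparisons with this group were tested. Read depth is unknown, and a lower level per liver can come from fewer cells of a type or from less RNA per cell, which bulk samples cannot tell apart. The hepatocyte marker Alb (albumin) stood between 14.65 and 16.01 in the 9 means. The deposited mean of the 4 livers lay above the mean of their log2 levels by 0.10 at the median of the members (−0.15 to 0.34, above 0 in 37 of 47) and by 0.09 over all genes. For some members it lay outside the range of the livers: Mrpl35 had a deposited mean of 3.52 and livers from 2.90 to 3.37. Mrpl20 had one of 6.30 and livers from 6.35 to 6.49. No average of those 4 values gives such a mean, so livers and means may be on different scales. Tested differences set the livers against means of other groups and include this offset. Member levels in the means ran from 0.50 to 7.99, and 2 members, Mrps28 and Mrpl23, averaged under 1.

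Across the 9 groups the median level of the family was highest at 0 h and lowest at 72 h. Relative to each gene's own mean over the groups, the median member stood at 0.15 in 3-month and 0.15 in 12-month livers at 0 h. At 48 h it stood at 0.08 at 3 months, 0.07 at 12 months and 0.10 at 12 months with ATRi. At 72 h without inhibitor it was −0.03 at 3 months and −0.14 at 12 months. With ATRi at 72 h it was −0.07 at 3 months and −0.27 at 12 months, the lowest of the 9. The members did not all follow: 32 of 47 had a Pearson r of 0.5 or more with the median member over the 9 means (a description over 9 points that share mice and normalization), whereas 7 had an r below 0, with Mrps28 (−0.81) and Mrps27 (−0.79) at the end.

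**Figure D1:**
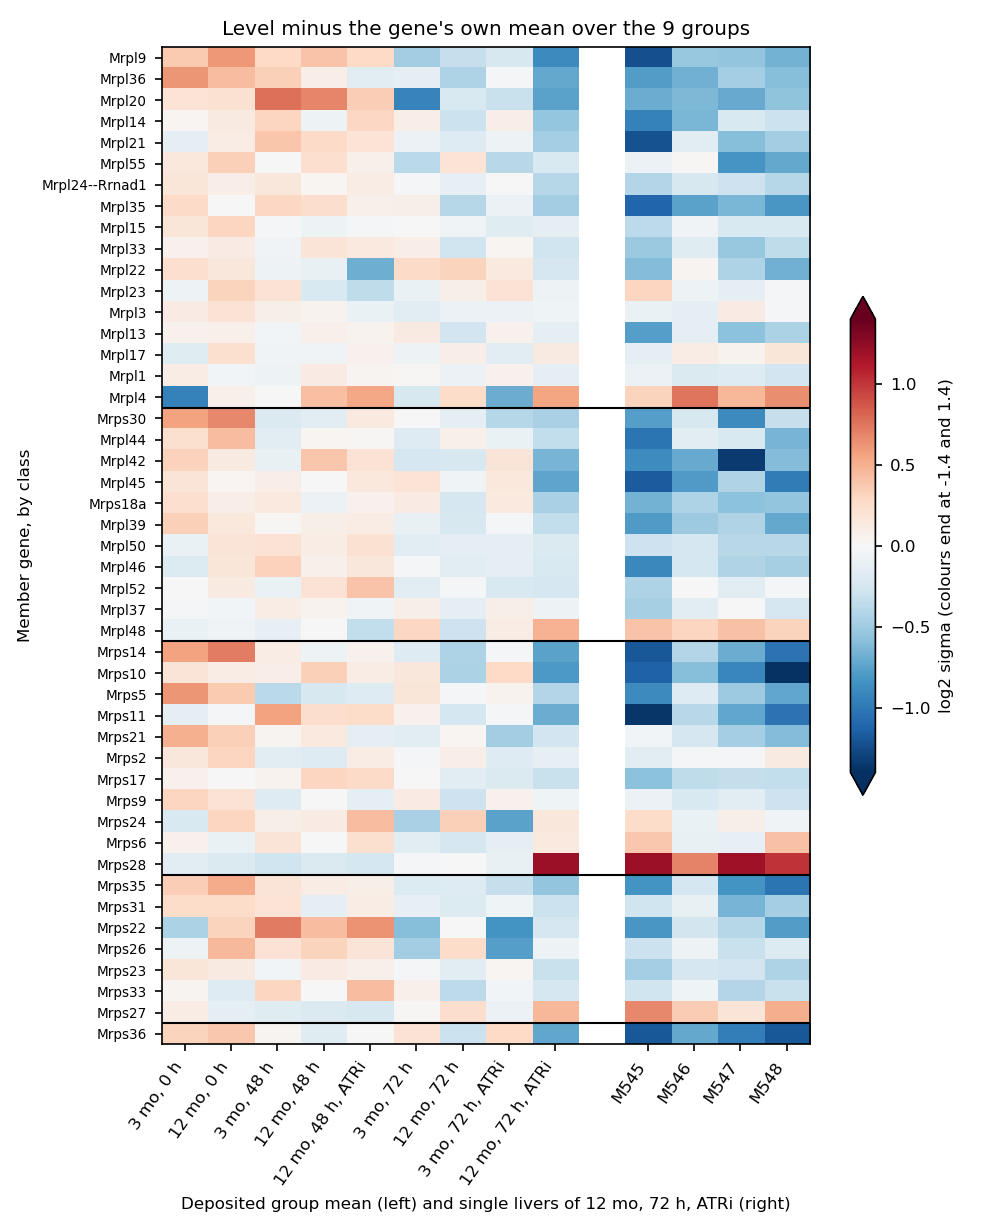
Colour map of each member's log2 level minus its own mean over the 9 group means (rows, ordered by class and by the difference between 12 months, 72 h, ATRi and 12 months, 0 h); the 9 columns on the left are deposited means, the 4 on the right are the single livers of 12 months, 72 h, ATRi, and black lines part the 5 classes. Most rows turn from red at 0 h to blue at 72 h with ATRi at 12 months, while Mrps28, Mrps27, Mrpl48 and Mrpl4 turn red there.

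At 48 h, when replication genes of the liver were high, the family as a whole was close to its level before PH. In 3-month mice the members' median difference from 0 h was −0.09, the same as that of all genes (−0.09), with 16 members above 0 and 31 below. Of the members, 6 were higher by 0.5 or more (10.5% of all genes were) and 2 were lower by as much (13.2%). Mrps22, a mitochondria-specific small subunit protein, went from 4.78 to 5.96 (difference 1.18). Mrpl4, whose bacterial counterpart lines the peptide exit tunnel, went from 3.85 to 4.81 (0.95). Mrps11 (0.70), Mrpl20 (0.57), Mrpl21 (0.52) and Mrpl46 (0.52) were the other 4. The 2 low ones were Mrps5, counterpart of a bacterial protein near the decoding site, at 4.59 before and 3.60 after (−0.99), and Mrps30, at 2.87 before and 2.11 after (−0.77).

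In 12-month mice at 48 h the median difference was −0.08, against −0.02 for all genes. No member reached 0.5 upwards (9.94% of all genes did), and 5 were lower by 0.5 or more (8.71%). Those were Mrps30 (2.98 before, 2.15 after, −0.84), Mrps14, a protein of the small subunit head (3.09 before, 2.31 after, −0.78), Mrps5 (4.34 before, 3.75 after, −0.60), Mrps36 (3.63 before, 3.09 after, −0.54) and Mrpl23 (1.16 before, 0.64 after, −0.53). Mrpl20 had the highest difference, at 0.47. Mrps30 and Mrps5 were therefore low at 48 h at both ages, whereas Mrps22, so high at 48 h in 3-month mice, differed by 0.12 in 12-month mice. The age groups have no common spread, so that contrast was not tested. In 12-month mice Kupffer cell markers were above 0 h for 0 of 9 (median −0.89, summed level 7.72 against 8.60), neutrophil markers for 0 of 8 (−0.55, 3.93 against 5.56), and T and NK cell markers for 1 of 9 (−0.50). In 3-month mice Kupffer cell markers were above 0 h for 4 of 9 (−0.20), neutrophil markers for 5 of 8 (0.22), and T and NK cell markers for 0 of 9 (−0.44). Their part in the members' differences was not tested. In the same comparisons the cytosolic ribosomal protein genes (36 measured) had medians of 0.18 at 3 months and 0.28 at 12 months, and all 23 measured genes of DNA replication and mitosis were above 0, with medians of 2.64 and 2.77.

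At 72 h without inhibitor more members were low. In 3-month mice the median difference from 0 h was −0.16 (all genes −0.09), with 14 members above 0 and 33 below. One member was higher by 0.5 or more (8.53% of all genes), namely Mrpl4, at 3.85 before and 4.57 after (0.72). Some 9 members were lower by 0.5 or more (13.0% of all genes), and 5 were when centred on the median of all genes. Mrpl20, counterpart of an early-assembling bacterial large subunit protein, had the lowest difference, from 7.25 to 6.12 (−1.13). Mrpl9, a protein of the large subunit, went from 2.56 to 1.71 (−0.86), Mrpl36, counterpart of the smallest protein of the bacterial large subunit, from 2.04 to 1.28 (−0.76), and Mrps14 from 2.94 to 2.20 (−0.74). The others were Mrps21 (−0.65), Mrps30 (−0.57), Mrpl42 (−0.55), Mrps35 (−0.54) and Mrpl55 (−0.52).

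In 12-month mice at 72 h nearly the whole family lay below its 0 h level. The median difference was −0.30, against −0.09 for all genes. Of the members, 42 were below 0 and 5 above, whereas 60.0% of all genes were below 0. No member was higher by 0.5 or more and 7 were lower by as much, with 10.2% of all genes in each direction. Mrps14 went from 3.09 to 1.95 (−1.14), Mrpl9 from 2.81 to 1.87 (−0.94), Mrpl36 from 1.85 to 0.99 (−0.86) and Mrps30 from 2.98 to 2.17 (−0.81). Mrps35 (−0.69), Mrps36 (−0.68) and Mrps10 (−0.55) completed the set. The shift was thus shallow and broad: the quartiles of the members lay at −0.40 and −0.15, and the 5 above 0 were Mrps27 (0.38), Mrps28 (0.21), Mrpl4 (0.19), Mrpl22 (0.16) and Mrps24 (0.03). The classes did not part: medians were −0.29 for large subunit proteins with a bacterial counterpart, −0.33 for mitochondria-specific ones (11 of 11 below 0), −0.22 for small subunit proteins with a counterpart and −0.27 for mitochondria-specific ones.

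Markers of other liver cells also moved in the 12-month mice at 72 h. Of the Kupffer cell and macrophage markers, 8 of 9 measured were above their 0 h mean (median 0.67), and their summed log2 level was 9.70, against 8.60 at 0 h. Of the neutrophil markers, 6 of 8 were above 0 h (median 1.06), with a summed level of 6.56 against 5.56, although the defining marker Ly6g stood at 0.09, near the lowest level in the tables (0.05). Hepatocyte markers were above 0 h for 10 of 15 (median 0.30), stellate cell and fibroblast markers for 9 of 11 (0.45) and sinusoidal endothelial markers for 5 of 10 (0.02). T and NK cell markers were above 0 h for 1 of 9 (−0.36), B and plasma cell markers for 2 of 6 (−0.06), cholangiocyte markers for 1 of 3 (−0.12) and erythroid markers for 2 of 6 (−0.12). The part of these cell types in the members' differences was not tested. Replication and mitosis genes were above 0 h for 23 of 23 (median 1.89).

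**Figure D2:**
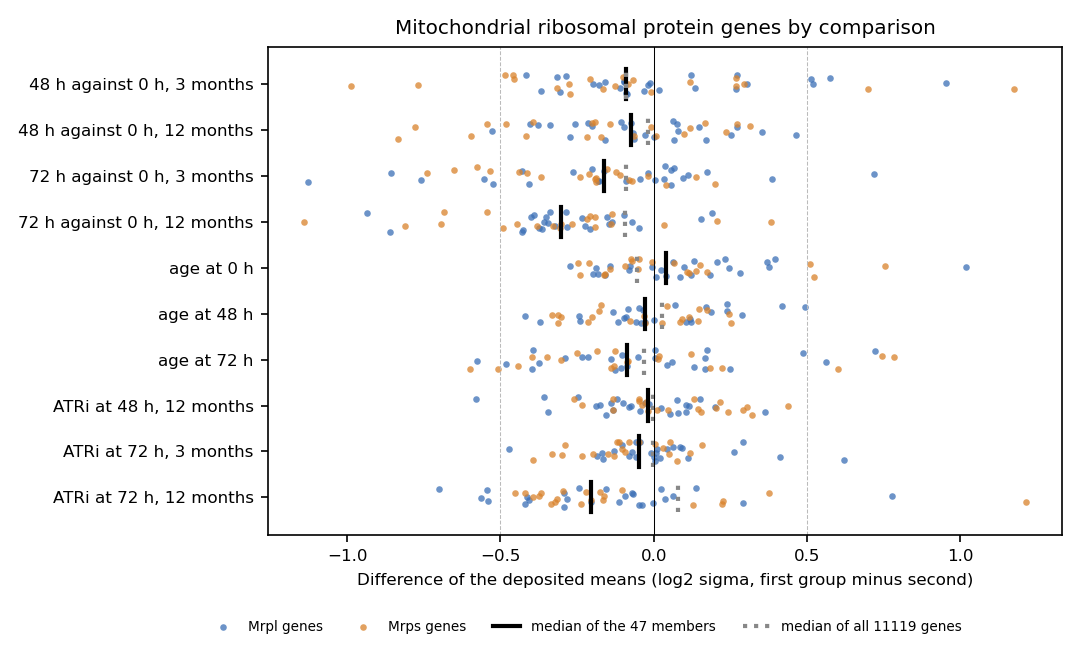
Strip plot of the 47 members' differences (horizontal axis, log2 sigma, first group minus second) in 10 comparisons (rows); blue points are Mrpl genes, orange points Mrps genes, the black bar is the members' median, the dotted grey bar the median of all 11119 genes, and dashed lines mark 0.5 in each direction. The black bar lies left of the grey bar by 0.21 at 72 h in 12-month mice and by 0.29 under ATRi at 72 h in 12-month mice, and the bars coincide at 48 h in 3-month mice.

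From 48 h to 72 h the means without inhibitor were lower for most members at both ages. At 3 months the median difference was −0.14 (all genes −0.02), and 1 member was higher by 0.5 or more, Mrps5 at 0.55 (10.8% of all genes), while 5 were lower (13.1%). Mrpl20 went from 7.82 to 6.12 (−1.70) and Mrps22 from 5.96 to 4.63 (−1.33), and Mrpl9 (−0.77), Mrps26 (−0.68) and Mrps24 (−0.54) followed. At 12 months the median was −0.23 (all genes −0.10), no member was higher by 0.5 or more (10.9% of all genes) and 6 were lower (14.5%). Centred on the median of all genes, 2 members were higher and 5 lower. The 6 before centring were Mrpl20 (7.73 to 6.84, −0.89), Mrps10 (−0.78), Mrpl9 (−0.72), Mrpl35 (−0.65), Mrpl42 (−0.62) and Mrpl36 (−0.52). Mrpl20 and Mrpl9 were the 2 members found in both sets. None of these differences between means carries a test. At 12 months Kupffer cell markers were higher at 72 h than at 48 h for 9 of 9 (median 2.06, summed level 9.70 against 7.72) and neutrophil markers for 7 of 8 (1.67, 6.56 against 3.93). At 3 months Kupffer cell markers were higher for 9 of 9 (0.37), sinusoidal endothelial markers for 9 of 10 (0.53) and neutrophil markers for 3 of 8 (−0.20). Their part in the members' differences was not tested.

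Age made little difference to the family's median but a larger one to a few members. At 0 h the 12-month mean minus the 3-month mean had a median of 0.04 (all genes −0.05). Some 4 members were higher at 12 months by 0.5 or more (4.76% of all genes) and none lower (4.84%). Mrpl4 stood at 3.85 at 3 months and 4.87 at 12 months (1.02), Mrps22 at 4.78 and 5.53 (0.76), Mrps26, a mitochondria-specific small subunit protein, at 4.37 and 4.90 (0.52), and Mrps24, counterpart of a bacterial protein at the mRNA entry, at 6.36 and 6.87 (0.51). At 72 h without inhibitor the median was −0.09 (all genes −0.03), with 5 members higher at 12 months by 0.5 or more (8.23%) and 3 lower (6.65%), or 6 and 2 when centred on the median of all genes. Mrps24 (6.12 and 6.90, 0.78), Mrps26 (3.96 and 4.70, 0.74), Mrpl20 (0.72), Mrps22 (4.63 and 5.23, 0.60) and Mrpl55 (0.56) were higher, and Mrpl4 just missed the set at 0.49. Mrps10 (4.64 and 4.04, −0.60), Mrpl48 (−0.58) and Mrps36 (−0.51) were lower.

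At 48 h no member differed by 0.5 or more between the ages in either direction, where 4.34% of all genes were higher and 3.87% lower. The median was −0.03 (all genes 0.03), and the members that were higher with age at 0 h now differed by 0.42 (Mrpl4), −0.30 (Mrps22), 0.11 (Mrps26) and 0.03 (Mrps24). The 0 h and 72 h groups share mice, so Mrps22, Mrps24 and Mrps26 being higher with age at both times is not independent evidence. At 0 h Kupffer cell markers were higher at 12 months for 9 of 9 (median 0.58) and neutrophil markers for 7 of 8 (1.03), with summed levels of 8.60 against 7.83 and 5.56 against 3.70. At 72 h they were higher at 12 months for 9 of 9 (0.94) and 8 of 8 (1.401), with summed levels of 9.70 against 8.30 and 6.56 against 4.10. At 48 h they were higher for 1 of 9 (−0.32) and 2 of 8 (−0.04). Their part in the age differences of the members was not tested.

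ATRi had little relation to the family at 48 h in 12-month mice or at 72 h in 3-month mice. At 48 h the median of ATRi minus no inhibitor was −0.02 (all genes −0.001), no member was higher by 0.5 or more (3.72% of all genes) and 1 was lower (2.6%). That member was Mrpl22, counterpart of another protein of the exit tunnel, at 3.49 without and 2.91 with ATRi (−0.58). Mrps33, at 1.23 without and 1.67 with ATRi, had the highest difference (0.44). At 72 h in 3-month mice the median was −0.05 (all genes −0.003), 1 member was higher (1.52%) and none lower (1.8%). The higher one was Mrpl20, at 6.12 without and 6.74 with ATRi (0.62). Both comparisons rest on means alone.

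At 72 h in 12-month mice the means with ATRi were lower for most members while genes at large leaned the other way. The median difference was −0.21 for the members and 0.08 for all genes, and 36 members were below 0 against 42.4% of all genes. Past 0.5 stood 2 members upwards (20.6% of all genes) and 4 downwards (7.82%). Mrps28, counterpart of bacterial protein S1, stood at 0.94 without ATRi and, with ATRi, at 2.14 in M545, 1.63 in M546, 2.12 in M547 and 1.95 in M548. Mrpl48, a mitochondria-specific large subunit protein, stood at 1.21 without and at 1.90, 1.80, 1.91 and 1.81 in the same livers. All 4 livers lay above the mean without ATRi for both genes, as they did for 34.7% of all genes. For Mrps28 they also lay above the mean of every other group. For Mrpl48 the 3-month mean at 72 h without inhibitor, 1.790, was nearly level with M546, at 1.799. How many of all genes had livers above every other mean was not counted.

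The low members were Mrpl45, which lies at the tunnel exit facing the inner membrane, Mrpl9, Mrpl20 and Mrpl22. Mrpl45 stood at 2.94 without ATRi and at 1.82, 2.20, 2.57 and 2.01 in M545 to M548. Mrpl22 stood at 3.90 without and at 2.99, 3.63, 3.16 and 2.92 with ATRi. Mrpl9 stood at 1.87 without and at 0.97, 1.66, 1.64 and 1.54 with ATRi, and Mrpl20 at 6.84 without and at 6.35, 6.42, 6.35 and 6.49. In each of these 4 genes all livers were below the mean without ATRi, with M545 lowest for Mrpl45 and Mrpl9 and M548 lowest for Mrpl22.

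Over the family, all 4 livers lay below the mean without ATRi for 26 members (25.8% of all genes), above it for 4 (34.7%) and on both sides for 17. The 4 above were Mrps28, Mrpl48, Mrpl4 and Mrps6. For some of the 26 the livers also lay below the deposited mean of their own group. For Mrpl46 that mean was 4.67 and the highest liver 4.63, against 4.72 without ATRi. These counts, the shares of all genes and the medians per liver below therefore include the offset of livers from deposited means. The livers differed in how far the family was shifted: the members' median difference was −0.40 in M545, −0.10 in M546, −0.25 in M547 and −0.29 in M548, while the median of all genes lay between 0.03 and 0.07. M546 was thus the liver closest to the mice without inhibitor. In the means with against without ATRi, neutrophil markers were above 0 for 7 of 8 (median 0.53) and Kupffer cell markers for 2 of 9 (−0.28). The summed log2 level of neutrophil markers, 6.56 without ATRi, was 6.23 in M545, 7.66 in M546, 6.53 in M547 and 6.88 in M548, and that of Kupffer cell markers, 9.70 without, was 10.06, 9.13, 9.35 and 9.28. By these summed levels M545 and M546 were the 2 ends of both marker lists as well as of the family. Single markers did not all follow. M546 was highest for S100a8, Mpo, Ngp and Ltf but lowest for Ly6g, Csf3r and Cxcr2, and Mmp9 was highest in M548. M545 was highest for every Kupffer cell marker but Vsig4, though M546 was not lowest for all. The part of these cells in the members' differences was not tested.

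With limma, a linear model over all genes, no member passed a Benjamini-Hochberg adjusted p of 0.05 in this comparison, and no gene of the 11119 did. At an unadjusted p under 0.05 there were 13 members and 4116 genes (37.0% of all). Mrps28 had a tested difference of 1.02 (SE 0.15) and Mrpl48 one of 0.64 (SE 0.12), each with a limma adjusted p of 0.0513. Mrpl45 (−0.79, SE 0.22) had a limma adjusted p of 0.0626 and Mrpl22 (−0.73, SE 0.22) one of 0.0732. Fits without trend and robust moderation also called no member, but without M546 limma called 9 members. Tested differences use the mean of the 4 livers' log2 levels and so sit below the differences of the deposited means for the 37 members whose deposited mean is the higher one, and above them for the other 10, among them Mrpl9 and Mrpl20.

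Members with long genes had higher differences with ATRi at 12 months than members with short ones. The 7 members that span 50 kb or more in GENCODE were Mrps6, Mrps9, Mrpl1, Mrpl48, Mrpl33, Mrps27 and Mrps28, the last the longest at 121.8 kb. A RefSeq promoter window of Mrpl48 and one of Mrpl33 lie inside their GENCODE spans of 62.6 and 67.45 kb. Transcripts from those starts are shorter than the spans, and how the set would change with them was not tested. Their median difference was 0.23, with 5 of 7 above 0, against −0.24 and 6 of 39 above 0 in the shorter members. Spearman's rho between span and difference was 0.42 across the 46 members with a span, and it was 0.42 across 10061 genes as well. This is a correlation across genes that share the same libraries and is a description. All long genes had a median of 0.40 and all short genes −0.02, so long genes stood above short ones in the tables as a whole. Within the short genes, the members' −0.24 was lower than the −0.02 of all genes, and within the long genes 0.23 was lower than 0.40. Without inhibitor at 12 months, 72 h against 0 h, the rho of the members was 0.01, against 0.26 over all genes. Other comparisons without inhibitor had member values away from 0, namely 0.37 for 72 h against 48 h at 3 months (all genes 0.28) and −0.45 for age at 0 h (all genes −0.20).

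**Figure D3:**
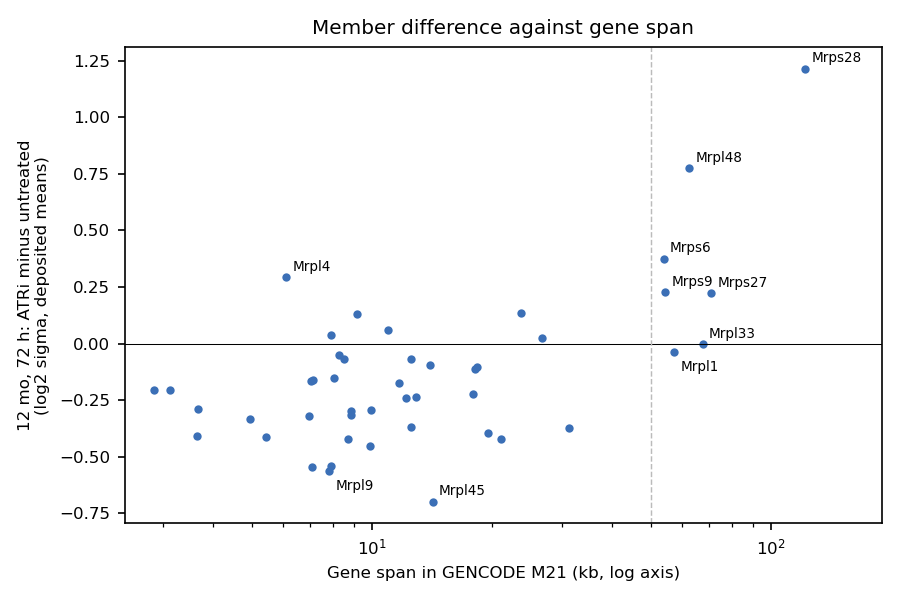
Scatter plot of each member's difference between ATRi and no inhibitor at 12 months and 72 h (vertical axis, log2 sigma, deposited means) against its gene span (horizontal axis, kb, log scale), with a dashed line at 50 kb. Of the 7 members to the right of the line 5 lie above 0, and of the 39 to the left 6 do.

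Set against 0 h, the 12-month ATRi livers at 72 h had the largest change of the family. Of 47 members, 32 fell (25.1% of all genes did) and 4 rose (23.0%) at a limma adjusted p under 0.05. The median difference of the deposited means was −0.49, against −0.02 for all genes, and that of the tested differences −0.63 against −0.04. Neutrophil markers were above 0 h for 7 of 8 (median 1.496) and Kupffer cell markers for 6 of 9 (0.45). Hepatocyte markers were above for 10 of 15 (0.34), stellate cell and fibroblast markers for 8 of 11 (0.16) and sinusoidal endothelial markers for 4 of 10 (−0.07). T and NK cell markers were above for 1 of 9 (−0.37), B and plasma cell markers for 0 of 6 (−0.24), cholangiocyte markers for 1 of 3 (−0.21) and erythroid markers for 2 of 6 (−0.24). The part of these cell types was not tested. Each liver had 42 members below the 0 h mean and 5 above, with medians of −0.67 in M545, −0.38 in M546, −0.59 in M547 and −0.59 in M548.

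Among the large subunit members, Mrpl9 stood at 2.81 at 0 h and at 0.97, 1.66, 1.64 and 1.54 in M545 to M548. It fell by 1.36 (SE 0.18, limma adjusted p 0.0027). Mrpl36 stood at 1.85 at 0 h and at 0.64, 0.74, 0.94 and 0.82 in the livers. It fell by 1.06 (SE 0.10, limma adjusted p 0.0015). These liver levels of Mrpl36 are near the low end of the scale, where the lowest level of a group or liver was as high as 0.548, which limits this test. Mrpl42, a mitochondria-specific protein, stood at 2.94 at 0 h and at 1.94, 2.12, 1.48 and 2.22 in the livers, and passed with a limma adjusted p of 0.0071 (SE of the difference 0.19). Mrps30 stood at 2.98 at 0 h and at 1.54, 2.09, 1.42 and 1.99 in the livers, and fell by 1.22 (SE 0.19, limma adjusted p 0.0036). Mrpl44, related to ribonuclease III, fell by 0.94, Mrpl20 by 0.86, Mrpl45 by 0.86 and Mrpl35 by 0.83, all past the same limma threshold.

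Among the small subunit members, Mrps14 stood at 3.09 at 0 h and at 1.19, 1.97, 1.68 and 1.34 in the livers. It fell by 1.54 (SE 0.19, limma adjusted p 0.0023), the largest fall of the family by the tested differences, whereas by the deposited means Mrpl9 (−1.50) lay lower than Mrps14 (−1.46). Mrps35, a mitochondria-specific protein, stood at 4.42 at 0 h and at 3.06, 3.65, 3.07 and 2.88, and fell by 1.25 (SE 0.20, limma adjusted p 0.0039). Mrps10 fell by 1.11, Mrps5 by 0.94, Mrps22 by 0.87 and Mrps11 by 0.85. For each of these 6 genes all 4 livers were below the 0 h mean. Mrps36, the dehydrogenase subunit, stood at 3.63 at 0 h and at 2.07, 2.54, 2.29 and 2.07, and fell by 1.39 (SE 0.17, limma adjusted p 0.0021).

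The 4 members that rose were Mrps28, Mrps27, Mrpl4 and Mrpl48. Mrps28 stood at 0.73 at 0 h and rose by 1.23 (SE 0.13, limma adjusted p 0.0017). In every other group its mean lay between 0.66 and 0.94, near the low end of the scale. That limits the tests of Mrps28 in all comparisons. Mrps27, a pentatricopeptide repeat protein of the small subunit, stood at 1.96 at 0 h and at 2.77, 2.46, 2.29 and 2.61 in the livers, and rose by 0.57 (SE 0.15, limma adjusted p 0.0234). Mrpl4 stood at 4.87 at 0 h and at 5.11, 5.55, 5.27 and 5.45, and rose by 0.47 (SE 0.14, limma adjusted p 0.035). Mrpl48 rose by 0.41 (SE 0.11, limma adjusted p 0.0198). Of these 4, Mrpl4 is the only one with a short gene, at 6.1 kb. The remaining 11 members did not pass, with tested differences from −0.39 (Mrps9) to 0.24 (Mrps6).

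**Figure D4:**
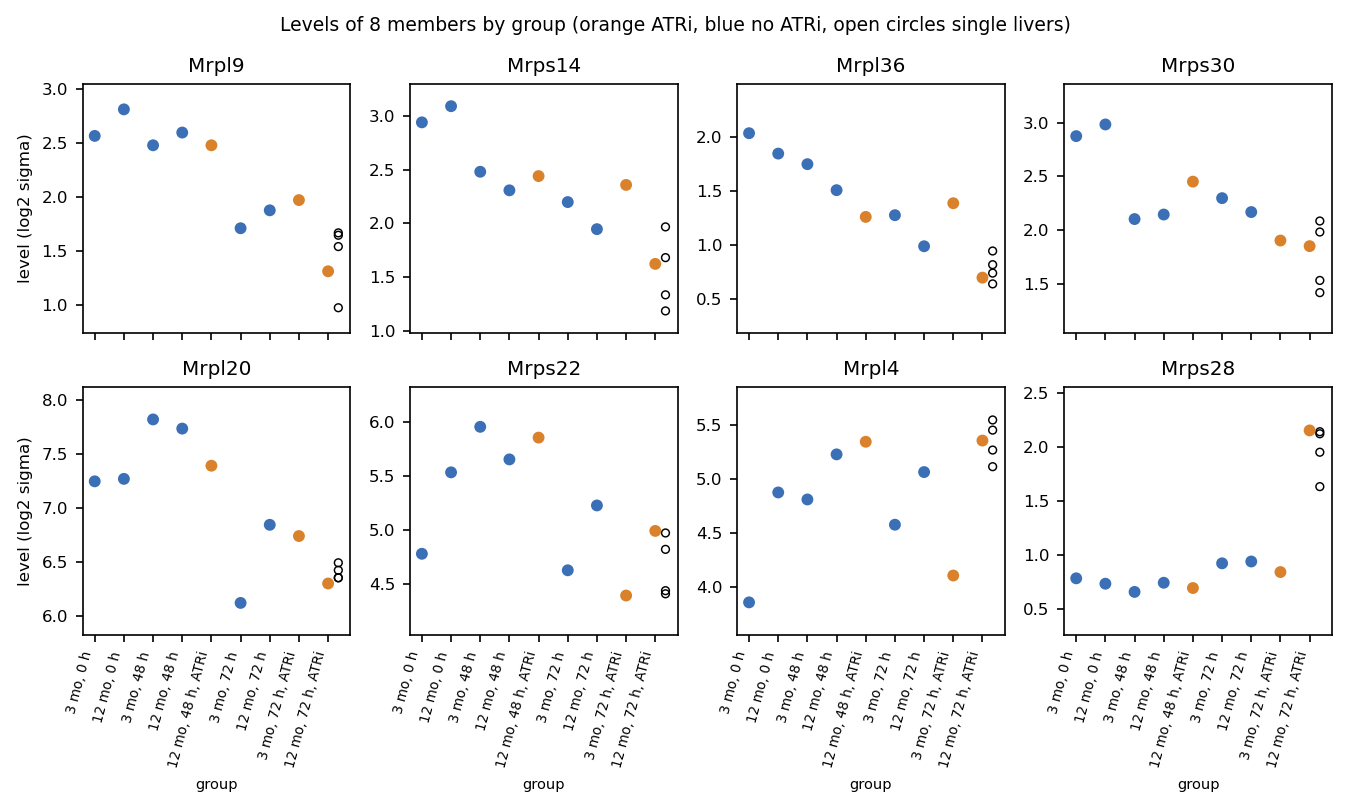
Levels (vertical axes, log2 sigma, each panel spanning 2.3 units from its own start) of 8 members in the 9 groups (horizontal axis); filled points are deposited means, orange with ATRi and blue without, and open circles are the 4 single livers of 12 months, 72 h, ATRi. For Mrpl9, Mrps14, Mrpl36 and Mrps30 the mean with ATRi at 12 months and 72 h is the lowest of the 9 means, and the livers of Mrps28 stand between 1.63 and 2.14, above every other group.

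The number of calls depends on how the means are weighted. The fit takes the spread of the 4 ATRi livers for all groups and weights each mean by its number of mice. With a weight of 1 for every observation, limma called 1 member in place of 36. Without M548 it called 23 members, and without M545, M546 or M547 it called 31, 33 and 24. All 8 mice of the 12-month 72 h groups were also sampled at 0 h, and single values at 0 h would be needed to use that pairing.

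From 48 h to 72 h under ATRi at 12 months 21 members fell (20.7% of all genes) and 3 rose (17.8%) at a limma adjusted p under 0.05. The median difference of the deposited means was −0.40 (all genes −0.01). Mrps22 stood at 5.86 at 48 h and at 4.41, 4.97, 4.82 and 4.44 in the 72 h livers, and fell by 1.20 (SE 0.21, limma adjusted p 0.0085). Mrps11 stood at 5.07 and then at 3.45, 4.42, 4.09 and 3.78, and fell by 1.14 (SE 0.27, limma adjusted p 0.0196). Mrpl20 stood at 7.39 and then at 6.35, 6.42, 6.35 and 6.49, and fell by 0.99 (SE 0.12, limma adjusted p 0.0048). Mrps10 (−1.11), Mrpl42 (−1.09) and Mrpl9 (−1.02) also passed. Those that rose were Mrps28 (1.27), Mrpl48 (0.70) and Mrps27 (0.66), all members with GENCODE spans of 50 kb or more. Kupffer cell markers were above 48 h for 9 of 9 (median 1.48, 8 called higher by limma), neutrophil markers for 8 of 8 (2.46, 6 called) and erythroid markers for 6 of 6 (1.04, 4 called), and their part was not tested. Without M547 limma called 13 members and without M548 12, and with a weight of 1 for every observation it called 2.

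Between the ages under ATRi at 72 h 10 members were lower at 12 months (12.9% of all genes) and 4 higher (17.3%) at a limma adjusted p under 0.05. The median difference of the deposited means was −0.20 (all genes 0.05). Mrps36 stood at 3.54 at 3 months and at 2.07, 2.54, 2.29 and 2.07 in the 12-month livers, a difference of −1.29 (SE 0.19, limma adjusted p 0.0107). Mrps10, of the small subunit head, stood at 4.76 and then at 3.35, 3.89, 3.57 and 3.09, a difference of −1.28 (SE 0.22, limma adjusted p 0.0130). Mrpl42 (−1.06), Mrpl45 (−0.98), Mrps11 (−0.85), Mrps14 (−0.81), Mrpl35 (−0.75), Mrps18a (−0.70), Mrpl36 (−0.60) and Mrpl39 (−0.60) were the other 8.

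Of the 4 higher members, Mrpl4 stood at 4.10 at 3 months and at 5.11, 5.55, 5.27 and 5.45 at 12 months, a difference of 1.24 (SE 0.17, limma adjusted p 0.0094). Mrps28 (1.12), Mrps24 (0.80) and Mrps26 (0.55) were the others. Mrpl4, Mrps24 and Mrps26 thus had higher levels at 12 months at 0 h, at 72 h and at 72 h under ATRi, with the reservations on shared mice given above. Without M545 limma called 9 members, without M547 7 and without M548 6, and with a weight of 1 it called 0. In this comparison neutrophil markers were above 0 for 8 of 8 (median 2.97) and Kupffer cell markers for 9 of 9 (1.51), and their part was not tested.

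Whether ATRi acted differently at the 2 ages at 72 h was tested as an interaction. Limma called no member and 1 gene of 11119, with 7 members and 2724 genes at an unadjusted p under 0.05, and without M546 it called 3 members. The largest interaction differences were 1.10 for Mrps28 (SE 0.21, limma adjusted p 0.110), 0.83 for Mrpl48 (SE 0.17, limma adjusted p 0.110), −1.06 for Mrpl20 (SE 0.16, limma adjusted p 0.110) and −1.06 for Mrpl42 (SE 0.31, limma adjusted p 0.128). The ATRi differences at 12 months are therefore not shown to differ from those at 3 months.

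Other genes that serve mitochondrial translation were set beside the family in the comparison of 12-month ATRi livers at 72 h with 0 h. In that comparison 25.1% of all genes were called lower and 23.0% higher. Of 8 measured translation factors, limma called 6 lower and none higher (median difference of the means −0.74). Mtrf1, a release factor family member, fell by 1.37, Guf1, a GTPase of elongation, by 0.98 and Mtif2, an initiation factor, by 0.96. Of 18 measured genes of mitoribosome assembly, 14 were lower and 1 higher (median −0.70). Mrm1, which methylates ribosomal RNA, fell by 2.28, Noa1, a GTPase of small subunit assembly, by 1.97 and Rpusd4, a pseudouridine synthase, by 1.55, while Mettl15 rose by 0.64. These medians lay below the −0.49 of the mitochondrial ribosomal protein genes themselves.

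Of 13 mitochondrial tRNA synthetase genes, 6 were lower and 1 higher (median −0.17), with Fars2 up by 1.35 and Mars2 (−0.97) and Rars2 (−0.94) down. Of 19 genes of mitochondrial DNA transcription and RNA handling, 11 were lower and 1 higher (median −0.46). Tefm, the elongation factor of mitochondrial transcription, fell by 2.14, Polg2, a subunit of the mitochondrial DNA polymerase, by 1.77 and Fastkd1 by 1.29, while Lrpprc, which stabilises mitochondrial mRNAs, rose by 0.52. Of 50 nuclear genes for oxidative phosphorylation subunits, 30 were lower and 4 higher (median −0.28). Of 3 mitoribosomal proteins that lie outside the naming rule, Ict1 fell by 0.52, and Dap3 (−0.07) and Ptcd3 (−0.20) did not pass. By the deposited means Dap3 (0.25) and Ptcd3 (0.09) were above 0 h and the median of the 3 was 0.09, so for these 2 genes the direction depends on which values are used. Of 36 cytosolic ribosomal protein genes, 9 were higher and 5 lower (median 0.18), a share of higher calls near that of all genes. By the deposited means, the sets of genes for the 2 ribosomes had medians on opposite sides of 0. Rpl30 and Rps20, among the cytosolic genes with the largest differences, had low levels at 0 h, at 0.58 and 0.83. All these counts come from the same fit and rest on the same 0 h mean and 4 livers as those of the family.

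Factors known to regulate mitochondrial gene programmes were a list of 8 measured genes, of which 2 were higher and 1 lower in that comparison, against 23.0% and 25.1% of all genes, so these counts do not set the list apart. Ppargc1a, a coactivator of mitochondrial biogenesis, stood at 1.30 at 0 h and at 3.86, 1.48, 3.49 and 2.83 in M545 to M548, and rose by 1.62 (SE 0.45, limma adjusted p 0.0262). M546 was close to the 0 h level and the other 3 livers were well above it, and the difference of the deposited means was 2.11. Yy1 rose by 0.70 (SE 0.19, limma adjusted p 0.0222) and Mycn fell by 1.39 (SE 0.22, limma adjusted p 0.0041). Nrf1 (0.43) and Gabpb1 (0.15), a subunit of GABP, did not pass.

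Without inhibitor, the same lists at 72 h against 0 h in 12-month mice had medians of −0.31 for translation factors, −0.47 for assembly, −0.20 for tRNA synthetases, −0.31 for transcription and RNA handling, −0.24 for oxidative phosphorylation subunits and −0.09 for cytosolic ribosomal proteins, beside −0.30 for the mitochondrial ribosomal protein genes. The non-members whose 9 means ran most like the members' median were Snrnp27 (Pearson r 0.99), Kbtbd3 (0.99), Sumf2--Phkg1 (0.99), Ppcdc (0.98) and Ier3ip1 (0.98), each over 9 points. This ranking out of all genes is a description.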

How the data were processed

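The authors deposited 12 tables of 11119 genes in log2 of a value called sigma, which is not defined. Build names in the submitters' processing notes are GRCm38 and mm10. Aligner, counting and scaling between samples are not given in the sources used here, and depth is unknown. No column of single samples was left unused (0). Values were kept on the deposited scale. Symbols were matched to GENCODE M21 by name and chromosome.

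In 11 comparisons both groups had means only. Members at a difference of 0.5 or more were counted, without a test. In 5 comparisons limma 3.58.1 in R 4.3.3 was fitted over all genes and 9 groups (trend, robust, two-sided, Benjamini-Hochberg adjusted p under 0.05 over all genes). Each of the 4 livers had weight 1 and each mean the weight of its number of mice. P-values then rest on the spread of those 4 livers. Other steps used Python 3.11.15, pandas 2.3.3 and scipy 1.17.1.

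Members and lists were chosen with earlier results of these data known. Lists were 9 pathway lists and markers of 9 cell types. Named were the 4 highest and 4 lowest members of each comparison, up to 10 members past the threshold in each direction, those with the widest and narrowest ranges, some set by role, and up to 3 genes of each pathway list. Promoter windows came from RefSeq (GRCm38.p6).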

Additional observations from a re-analysis of the deposited data

Results flagged for a closer look

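Of 43 member values tested over the 4 livers of 12-month mice at 72 h with ATRi, 1 had a liver far from the others. Mrps17, counterpart of a bacterial small subunit protein, stood at 4.10 in M545, while the other 3 livers lay between 4.30 and 4.33. The gap to the nearest liver was 0.893 of the whole range, above Dixon's critical value for 4 samples. Chance alone flags about 1 in 20 groups. In M545 the family's median difference from the untreated mean, −0.40, was also the lowest of the 4 livers.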

How the results depend on the processing

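Medians of the members in the 11 comparisons of means moved by less than 0.12, the SD of the family's median over the 4 livers, when differences were centred on the median of all genes, low genes or joined entries were left out, or levels were damped as log2(2^value + 1). No named member with a difference past 0.5, or with a limma call in the chosen or an alternative fit, changed direction. Changes of sign in smaller or uncalled differences were not counted. Mrpl13 at 12 months and 72 h was such a case. It stood at 4.63 without ATRi and, with ATRi, at 4.42 by the livers and 4.765 by the deposited mean. Over all alternatives, calls of single members were lost 162 times and gained 35 times. Centring took the members lower by 0.5 or more at 72 h against 0 h in 3-month mice from 9 to 5, and those higher at 72 h against 48 h in 12-month mice from 0 to 2. Counts of members called by limma moved more. For ATRi at 72 h and 12 months, with 0 in the chosen fit, they were 2 with columns centred, 3 with livers shifted to the deposited mean and 6 by differences of the means past 0.5, and 0 to 9 with a liver left out. For age under ATRi the 14 calls became 0 with equal weights, and 6 to 17 with a liver left out. For 72 h against 48 h under ATRi the 24 became 2 with equal weights, and 12 to 27. For ATRi at 72 h against 0 h the 36 became 1 with equal weights, and 23 to 33. For the interaction the 0 became 8 by means past 0.5, and 0 to 3. Limma with the spread borrowed from the livers called 0 to 6 members in each direction in the comparisons of means. No paired analysis was possible because the 0 h groups and the other 48 h and 72 h groups have a mean and no values of single mice. The offset between deposited mean and livers, the equal spread assumed for all groups and the unknown depth limit every test here.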
